A study of Mus musculus with 6 samples.

Results

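The BCL2 family decides at the mitochondrion whether a cell survives or enters apoptosis, and 10 of its genes were followed here in mouse embryonic stem cells, out of 52870 genes in the deposited tables. The members were taken by name and by role and not by a cut on measured values, although earlier results of these data were known. The 4 survival members were Bcl2, Bcl2l1, Bcl2l2 and Mcl1. The 6 death members were the pore formers Bak1 and Bok and the BH3-only genes Bid, Bmf, Bik and Bcl2l11. The death genes Bax, Bbc3 and Pmaip1, which are known p53 targets, were kept apart and are given only for comparison.

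Survival proteins of the family hold the pore formers and the BH3-only proteins in check at the outer mitochondrial membrane. Pore formers that escape this control open the membrane and release cytochrome c, which starts caspase activation. BH3-only proteins carry a short helix, the BH3 domain, that fits a groove on the survival proteins, and some of them also switch on the pore formers directly. Pluripotent stem cells are known to enter apoptosis readily, and the protein encoded by Mcl1 is among those they depend on.

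RNA sequencing covered 3 libraries of Rbbp4KO cells, whose genotype is given as Rbbp4-/-, and 3 libraries of Rbbp4F/F cells, the control named in the series title. All were embryonic stem cells of the C57BL/6 strain. The Rbbp4 protein binds histones and is a subunit of Polycomb repressive complex 2, NuRD and other chromatin complexes. The sources used here do not give how the gene was removed, which exons were lost or whether each library had its own culture or clone. The p-values therefore rest on library-to-library spread alone, which may be technical. Levels are in FPKM, which divides fragments by transcript length and library total and makes them comparable between genes per length. Depth was estimated at 25400000 to 28900000 fragments per library.

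Rbbp4 itself stood at 21.28, 12.73 and 11.09 FPKM in the Rbbp4KO libraries, against 58.47, 56.97 and 61.75 FPKM in the Rbbp4F/F libraries. Its mean in Rbbp4KO cells was 25.5% of that in Rbbp4F/F cells (log2 fold change -1.96, SE 0.22, limma, adjusted p = 0.000394). Exons of antisense genes cover 18.0% of its exonic bases. Rbbp4KO replicate 1 kept the highest level and scored 36.0 on principal component 2, where the other Rbbp4KO libraries scored -7.0 and -24.2. Of 8 stem cell markers 7 fell, beside 22.5% of the 13579 genes tested below. The summed level of all 8 was 1390 to 2175 FPKM in Rbbp4KO libraries and 4705 to 4855 FPKM in Rbbp4F/F libraries. In bulk RNA, fewer cells of a type and less RNA per cell cannot be told apart. Of 9 markers of fibroblasts, which are often used as feeder cells, 8 never reached 1 FPKM. The summed level of all 9, at 9.37 to 10.78 FPKM in Rbbp4KO libraries and 12.98 to 19.39 FPKM in Rbbp4F/F libraries, was mostly Thy1, at 7.26 to 8.01 FPKM in Rbbp4KO libraries and 11.65 to 17.95 FPKM in Rbbp4F/F libraries. The other 8 summed to 2.11 to 3.02 FPKM in Rbbp4KO libraries and 1.02 to 1.44 FPKM in Rbbp4F/F libraries. Of them 5 (Col1a2, Col3a1, Dcn, Lum and Pdgfrb) were higher in every Rbbp4KO library. So were 41.3% of the genes tested below, which do not include these 8 low genes. Lum was at 0 in all Rbbp4F/F libraries. Of 6 blood and endothelial markers 4 never reached 1 FPKM, and the sum of all 6 was 101.4 to 111.5 FPKM in Rbbp4KO libraries and 77.95 to 82.28 FPKM in Rbbp4F/F libraries. Nearly all of it was Cd68, at 77.5 ± 4.97 FPKM in Rbbp4KO cells and 40.6 ± 0.556 FPKM in Rbbp4F/F cells, and Pecam1, at 26.9 ± 0.920 FPKM in Rbbp4KO cells and 39.1 ± 1.76 FPKM in Rbbp4F/F cells (SD, n = 3 each). Cd68 rose (limma, adjusted p = 0.000127) and Pecam1 fell (limma, adjusted p = 0.00128). The other 4 of the list summed to 0.3 to 0.6 FPKM in Rbbp4KO libraries and 0.58 to 1.25 FPKM in Rbbp4F/F libraries. Which cells the RNA of Thy1, Cd68 and Pecam1 came from was not tested. The marker genes singled out here were named after their values were seen. The part of these differences between libraries in the results below was not tested.

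All 10 members share the BH3 domain, and its coding sequence shows what the survival and death genes have in common. Their principal transcripts were searched for the core of the domain, a leucine, any 3 residues, a glycine and an aspartate, which 8 of the 10 proteins held. It was also held by 13.2% of the 21792 protein-coding genes with a complete principal transcript. To locate the core in Bcl2l2 and Bmf as well, the pattern was widened to allow methionine in place of leucine and alanine in place of glycine. That every member then has a match follows from this choice, and 27.5% of the genes searched hold the wider pattern. The stretches that code for it follow, 5′ to 3′ on the coding strand (GENCODE M21, GRCm38). Capitals mark the codons of the 3 defined residues.
Bcl2, chr1:106712575-106712610, minus strand: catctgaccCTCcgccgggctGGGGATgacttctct
Bcl2l1, chr2:152829697-152829732, minus strand: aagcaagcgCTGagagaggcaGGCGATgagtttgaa
Bcl2l2, chr14:54884508-54884543, plus strand: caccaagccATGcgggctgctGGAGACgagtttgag
Mcl1, chr3:95659427-95659462, plus strand: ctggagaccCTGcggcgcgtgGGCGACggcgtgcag
Bak1, chr17:27022531-27022566, minus strand: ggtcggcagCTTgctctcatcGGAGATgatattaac
Bok, chr1:93686648-93689170, plus strand, across an intron: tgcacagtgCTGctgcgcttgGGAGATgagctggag
Bid, chr6:120897289-120897324, minus strand: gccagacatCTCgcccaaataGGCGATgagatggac
Bmf, chr2:118545100-118545135, minus strand: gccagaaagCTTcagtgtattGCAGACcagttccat
Bik, chr15:83543075-83543110, plus strand: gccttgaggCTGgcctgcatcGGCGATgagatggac
Bcl2l11, chr2:128147141-128147176, plus strand: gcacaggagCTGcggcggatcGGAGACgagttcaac

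Bcl2l2 had the methionine codon ATG at the first defined residue. Bmf had an alanine codon, GCA, at the second. The match began at residue 90 of 233 in Bcl2l1 and at residue 94 of 236 in Bcl2. In Mcl1 it began at residue 194 of 331, behind the longest leading stretch among the survival members. The Bmf match lay near the end of the protein, at residue 224 of 271, and so did that of Bcl2l11, at residue 150 of 196.

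Loss of Rbbp4 went with higher transcript levels of the main survival genes and with mixed changes among the death genes. Bcl2l1 and Mcl1 rose, and so did the pore former Bak1, while Bok and Bmf fell. In all, 9 of the 10 members passed the filter of at least 1 FPKM in at least 3 libraries, and each of these reached 1 FPKM in all 6 libraries. By limma with Benjamini-Hochberg adjustment over 13579 tested genes, 3 of the 9 rose (33.3%), where 36.7% of all tested genes rose. Another 2 fell (22.2%), where 22.5% of all tested genes fell. Counted in either direction, 5 of 9 changed (55.6%), beside 59.1% of all tested genes. The shares of members that changed were thus close to those over all genes. The number that fell was 0 without Rbbp4F/F replicate 1, and 1 without replicate 2 or replicate 3 of that group. The median log2 fold change was 0.09 over the 9 tested members and 0.17 over all tested genes.

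**Figure D1:**
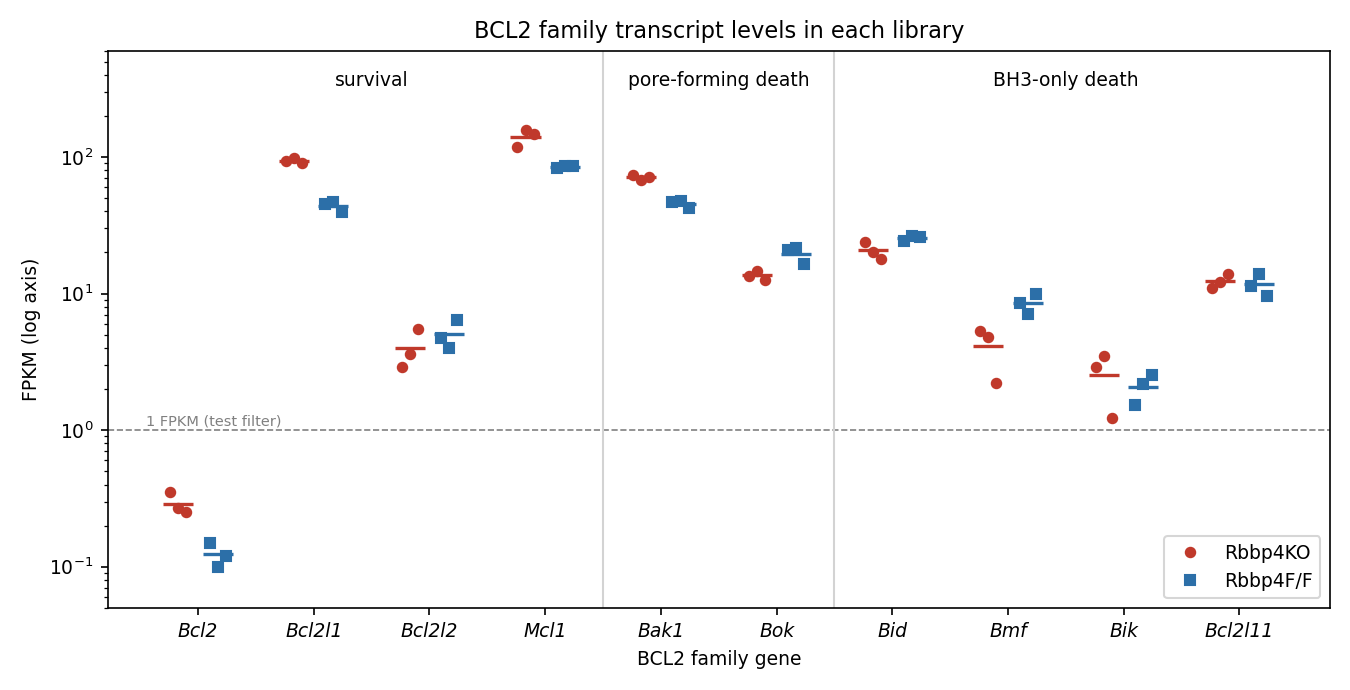
FPKM of each member in every library on a log axis, Rbbp4KO beside Rbbp4F/F, with each point 1 library and short lines for group means. Bcl2l1, Mcl1 and Bak1 lie higher in all Rbbp4KO libraries, Bok, Bid and Bmf lie lower, and Bcl2 stays under 0.4 FPKM in both groups.

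Of the 3 tested survival members, Bcl2l1 had the largest log2 fold change on the FPKM + 1 scale. It encodes BCL-XL, a survival protein of the outer mitochondrial membrane. Bcl2l1 (ENSMUSG00000007659, chromosome 2, 152780668 to 152831728, minus strand) stood at 93.37, 98.64 and 90.64 FPKM in Rbbp4KO libraries and at 44.99, 46.5 and 39.42 FPKM in Rbbp4F/F libraries. All Rbbp4KO libraries lay above all Rbbp4F/F libraries, and the means were 94.2 ± 4.07 FPKM in Rbbp4KO cells and 43.6 ± 3.73 FPKM in Rbbp4F/F cells (SD, n = 3 each). The log2 fold change was 1.10 ± 0.09 (SE; 95% interval 0.89 to 1.30; limma, adjusted p = 0.000112). Of all tested genes, 88.6% had a lower log2 fold change.

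Mcl1 encodes a short-lived survival protein. Mcl1 (ENSMUSG00000038612, chromosome 3, 95658788 to 95663176, plus strand) stood at 119.36, 156.47 and 147.2 FPKM in Rbbp4KO libraries and at 83.15, 85.8 and 86.59 FPKM in Rbbp4F/F libraries. The groups did not overlap, and the lowest Rbbp4KO value came from replicate 1, which also kept the most Rbbp4. Spread was wider among Rbbp4KO libraries, at 141 ± 19.3 FPKM, than among Rbbp4F/F libraries, at 85.2 ± 1.80 FPKM (SD, n = 3 each). Mcl1 rose by 0.71 ± 0.11 on the log2 scale (SE; 95% interval 0.46 to 0.97; limma, adjusted p = 0.00143).

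The other survival members were low. Bcl2l2, which encodes BCL-W, stood at 2.88, 3.61 and 5.51 FPKM in Rbbp4KO libraries and at 4.7, 3.97 and 6.45 FPKM in Rbbp4F/F libraries. These ranges overlapped, and the log2 fold change of -0.29 ± 0.24 (SE; 95% interval -0.85 to 0.28) did not pass the test (limma, adjusted p = 0.333). The interval includes both a fall and a small increase. The value was -0.12 without Rbbp4KO replicate 1, -0.12 without Rbbp4F/F replicate 3 and -0.49 without Rbbp4KO replicate 3, and it passed the test in none of these. Another gene on the same strand, Gm20521, shares 13.3% of its exonic bases.

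Bcl2, the founding survival gene of the family, was the lowest member in both groups. Bcl2 stood at 0.35, 0.27 and 0.25 FPKM in Rbbp4KO libraries and at 0.15, 0.10 and 0.12 FPKM in Rbbp4F/F libraries, which the depth estimate puts at about 46 to 67 fragments in Rbbp4KO libraries and about 18 to 30 in Rbbp4F/F libraries. It did not reach the filter, so it has no place in the counts above. All Rbbp4KO values were higher, and with no filter the log2 fold change on the FPKM + 1 scale was 0.20 ± 0.05 (SE; limma, adjusted p = 0.0267). That scale understates the change of a gene this low, and the ratio of the mean FPKM was 2.35.

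Pore formers moved in opposite directions. Bak1, whose protein sits in the outer mitochondrial membrane, stood at 73.75, 67.93 and 71.13 FPKM in Rbbp4KO libraries and at 46.56, 47.91 and 42.05 FPKM in Rbbp4F/F libraries. The groups were apart, with means of 70.9 ± 2.92 FPKM in Rbbp4KO cells and 45.5 ± 3.07 FPKM in Rbbp4F/F cells (SD, n = 3 each). Bak1 (chromosome 17, 27019810 to 27029009, minus strand) rose by 0.63 ± 0.08 on the log2 scale (SE; 95% interval 0.44 to 0.82; limma, adjusted p = 0.000686). Exons of the antisense gene Ggnbp1 cover 25.5% of its exonic bases, and the use of strand in counting is not given in the sources used here.

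Bok encodes a pore former known to act largely without control by the survival proteins. Bok (chromosome 1, 93685660 to 93695764, plus strand) stood at 13.45, 14.72 and 12.56 FPKM in Rbbp4KO libraries and at 20.73, 21.49 and 16.52 FPKM in Rbbp4F/F libraries. All Rbbp4KO values were lower, and Bok fell by 0.49 on the log2 scale (SE 0.13; 95% interval -0.79 to -0.19; limma, adjusted p = 0.0136). The call was lost when libraries were scaled to equal FPKM sums (-0.34, limma, adjusted p = 0.0513). It was also lost without Rbbp4F/F replicate 1 (adjusted p = 0.0570) and without Rbbp4F/F replicate 2 (adjusted p = 0.0550, both limma).

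In Rbbp4KO libraries Bak1 was 5.25 ± 0.560 times as high as Bok, and in Rbbp4F/F libraries 2.34 ± 0.178 times as high (SD, n = 3 each). The pore formers made up 68.1% ± 1.92 of the summed death members in Rbbp4KO libraries and 57.6% ± 2.40 in Rbbp4F/F libraries (SD, n = 3 each). Neither range overlapped between the groups.

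**Figure D2:**
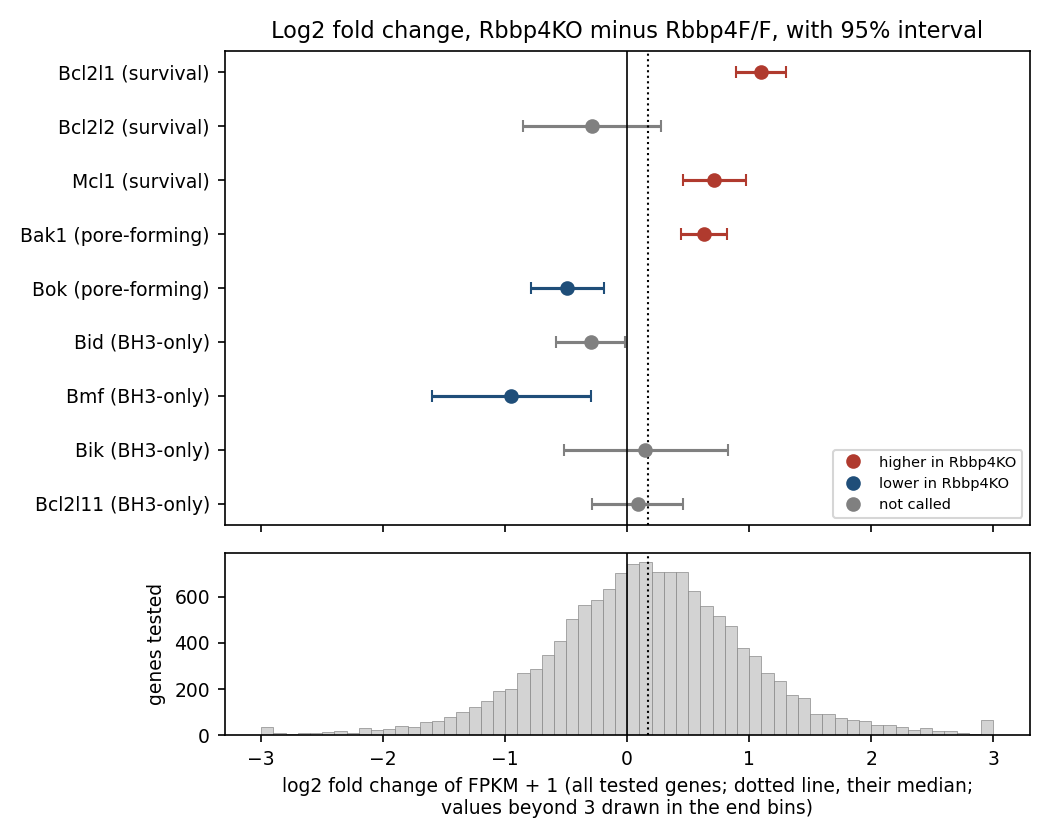
Log2 fold change of FPKM + 1, Rbbp4KO minus Rbbp4F/F, for the 9 tested members by role, with 95% intervals from limma and, in the lower panel, the distribution over all 13579 tested genes, whose median of 0.17 is the dotted line. The intervals of Bcl2l1, Mcl1 and Bak1 lie above 0, those of Bok and Bmf lie below 0, and those of Bcl2l2, Bik and Bcl2l11 include 0, while that of Bid ends at -0.02.

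Of the 4 BH3-only genes, 1 passed the test, and it fell. Bmf, whose protein is known to be tethered to the cytoskeleton in healthy cells, stood at 5.33, 4.78 and 2.2 FPKM in Rbbp4KO libraries and at 8.57, 7.08 and 9.89 FPKM in Rbbp4F/F libraries. Every Rbbp4KO value was lower, and replicate 3 had under 3 FPKM. Bmf (chromosome 2, 118528757 to 118549687, minus strand) fell by 0.95 on the log2 scale (SE 0.27; 95% interval -1.60 to -0.30; limma, adjusted p = 0.0209), and 8.2% of all tested genes had a lower log2 fold change. The call was lost without Rbbp4F/F replicate 1 (adjusted p = 0.0615), without Rbbp4F/F replicate 3 (adjusted p = 0.0753) and with no filter on low values (adjusted p = 0.0554, all limma).

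Bid, a BH3-only protein that caspase-8 cleaves to link death receptors to mitochondria, stood at 24.03, 20.05 and 18.03 FPKM in Rbbp4KO libraries and at 24.27, 26.43 and 26.13 FPKM in Rbbp4F/F libraries. The groups did not overlap, although the highest Rbbp4KO value, from replicate 1, came close to the lowest Rbbp4F/F value. The log2 fold change of -0.30 ± 0.12 (SE; 95% interval -0.58 to -0.02) did not pass (limma, adjusted p = 0.0617). Bid was called lower with upper-quartile scaling (-0.56, adjusted p = 0.00710), under median-ratio scaling (-0.48, adjusted p = 0.0109) and without Rbbp4KO replicate 1 (-0.41, adjusted p = 0.00632, all limma). Exons of Bcl2l13, on the opposite strand, cover 17.7% of its exonic bases.

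Bik encodes a BH3-only protein of the endoplasmic reticulum. Bik stood at 2.89, 3.51 and 1.22 FPKM in Rbbp4KO libraries and at 1.54, 2.16 and 2.53 FPKM in Rbbp4F/F libraries. Its Rbbp4KO values held both the highest and the lowest of the 6, and the log2 fold change was 0.15 ± 0.28 (SE; 95% interval -0.52 to 0.83; limma, adjusted p = 0.667). Bcl2l11 encodes BIM, which binds all survival proteins of the family. Bcl2l11 stood at 10.96, 12.17 and 13.91 FPKM in Rbbp4KO libraries and at 11.38, 13.99 and 9.6 FPKM in Rbbp4F/F libraries, which overlapped, with a log2 fold change of 0.09 (SE 0.16; 95% interval -0.29 to 0.46; limma, adjusted p = 0.665). For these genes the sign turned under other scalings, at -0.03 for Bik and -0.16 for Bcl2l11 with upper-quartile scaling.

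Over the 9 tested members, all Rbbp4KO libraries lay above all Rbbp4F/F libraries for 3 genes (33.3%), beside 41.3% of all tested genes. They lay below for another 3 (33.3%), beside 25.5% of all tested genes. By role, the median log2 fold change was 0.71 over the 3 tested survival members and 0.07 over the 2 pore formers among the members. It was -0.11 over the 4 BH3-only members and 0.17 over all tested genes.

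The order of levels changed near the top. In Rbbp4KO libraries Mcl1 was highest, followed by Bcl2l1 and then Bak1, with no overlap between these neighbours. In Rbbp4F/F libraries Mcl1 was also highest, but Bak1, at 42.05 to 47.91 FPKM, and Bcl2l1, at 39.42 to 46.5 FPKM, overlapped. Bid came after these genes in both groups and overlapped neither neighbour. Below it, Bok and Bcl2l11 overlapped in Rbbp4KO libraries, as did Bmf with Bcl2l2 and Bcl2l2 with Bik. In Rbbp4F/F libraries Bok lay above Bcl2l11, and below it Bcl2l11 and Bmf overlapped. Bcl2 was last in both groups.

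Summed levels set the survival genes against the death genes. The survival sum was 216, 259 and 243.6 FPKM in Rbbp4KO libraries and 133, 136.4 and 132.6 FPKM in Rbbp4F/F libraries. The death sum was 130.4, 123.2 and 119 FPKM in Rbbp4KO libraries and 113, 119.1 and 106.7 FPKM in Rbbp4F/F libraries. The survival sums did not overlap between the groups, whereas the death sums did. Bcl2l1 and Mcl1 made up 98.2% ± 0.497 of the survival sum in Rbbp4KO libraries and 96.1% ± 1.01 in Rbbp4F/F libraries (SD, n = 3 each), so the sum describes these genes almost alone.

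Survival over death came to 1.94 ± 0.243 in Rbbp4KO libraries and to 1.19 ± 0.0495 in Rbbp4F/F libraries (SD, n = 3 each). The lowest Rbbp4KO ratio, 1.656, was that of replicate 1, and the highest Rbbp4F/F ratio was 1.242. Such a ratio within a library does not depend on how the libraries are scaled to each other. The difference on the log2 scale was 0.70, and leaving out each library in turn gave 0.63 to 0.80. Within the death sum, the pore formers had more in Rbbp4KO libraries, at 84.5 ± 2.38 FPKM, than in Rbbp4F/F libraries, at 65.1 ± 5.74 FPKM. The 4 BH3-only members had less, at 39.7 ± 3.99 FPKM in Rbbp4KO libraries and 47.9 ± 1.97 FPKM in Rbbp4F/F libraries (SD, n = 3 each). This holds for these members only. Outside them, the BH3-only genes Bbc3, Pmaip1 and Bad rose (log2 fold changes of 0.80, 2.32 and 0.66), while the BH3-like gene Bnip3 fell (-1.73). Mean levels of Bbc3 and Pmaip1 were 43.5 and 62.8 FPKM in Rbbp4KO libraries and 24.6 and 11.3 FPKM in Rbbp4F/F libraries. These are transcript levels, and protein was not measured.

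**Figure D3:**
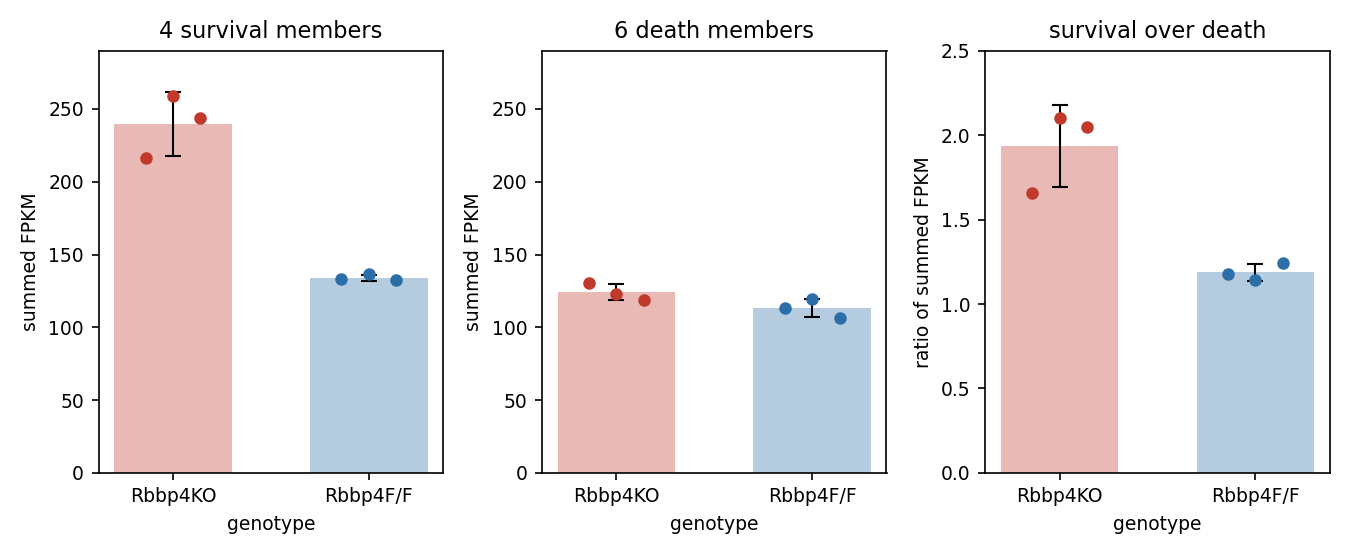
Summed FPKM of survival members, summed FPKM of death members and their ratio, with each point 1 library, bars for group means and error bars for the SD (n = 3), Rbbp4KO left of Rbbp4F/F. The survival sums of the 3 Rbbp4KO libraries, 216 to 259 FPKM, lie above those of Rbbp4F/F, while the death sums overlap.

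Pairs of survival gene and pore former differed in how much they shifted. Bcl2l1 over Bak1 was 1.33 ± 0.105 in Rbbp4KO libraries and 0.958 ± 0.018 in Rbbp4F/F libraries (SD, n = 3 each), without overlap. Mcl1 over Bak1 was 1.997 ± 0.348 in Rbbp4KO libraries and 1.88 ± 0.156 in Rbbp4F/F libraries (SD, n = 3 each), and these values overlapped.

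Of the p53-target death genes, 2 of 3 rose, beside 36.7% of all tested genes. Bax had a higher level than any of the 10 members in all 6 libraries. Bax, a pore former like Bak1, stood at 357.61, 263.47 and 240.23 FPKM in Rbbp4KO libraries and at 301, 329.33 and 292.42 FPKM in Rbbp4F/F libraries, and its log2 fold change was -0.12 (SE 0.15; limma, adjusted p = 0.520). Its Rbbp4KO libraries spread above and below those of Rbbp4F/F. Without Rbbp4KO replicate 1, Bax was called lower (-0.29; limma, adjusted p = 0.0178), and with equal FPKM sums its sign turned, at 0.04. Another gene on the same strand, Gm45808, shares 12.2% of its exonic bases.

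Bbc3, which encodes the BH3-only protein PUMA, stood at 49.72, 40.2 and 40.6 FPKM in Rbbp4KO libraries and at 27.17, 21.38 and 25.24 FPKM in Rbbp4F/F libraries. It rose by 0.80 ± 0.13 on the log2 scale (SE; limma, adjusted p = 0.00168). Pmaip1, which encodes NOXA, a BH3-only protein that binds MCL1, stood at 38.52, 69.89 and 79.97 FPKM in Rbbp4KO libraries and at 10.82, 10.96 and 12.02 FPKM in Rbbp4F/F libraries. It rose by 2.32 ± 0.25 (SE; limma, adjusted p = 0.000380), more than any of the 9 tested members. With all 3 added to the death sum, survival over death was 0.468 ± 0.0810 in Rbbp4KO libraries and 0.294 ± 0.0101 in Rbbp4F/F libraries (SD, n = 3 each), an addition chosen after the values were seen. The ratio then lay below 1 in all 6 libraries, and its Rbbp4KO values were still all higher. The added sum was mostly Bax, which was not called. Its mean was 287.1 FPKM of an added 393.4 FPKM in Rbbp4KO libraries and 307.6 FPKM of 343.5 FPKM in Rbbp4F/F libraries. The ratio thus says little about Bbc3 and Pmaip1.

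How the libraries are scaled to each other moved all genes together. With median-ratio scaling the median over all tested genes became 0.00 on the log2 scale, against 0.17 on FPKM as deposited. It became -0.07 with upper-quartile scaling and 0.31 with equal FPKM sums. The number of genes called higher and lower was 4978 and 3051 on FPKM as deposited, 3453 and 4402 with upper-quartile scaling, 3848 and 3974 with median-ratio scaling, and 6080 and 2380 with equal FPKM sums. Bcl2l1, Mcl1 and Bak1 were called higher under each of these scalings, with log2 fold changes of 0.83 to 1.25, 0.45 to 0.87 and 0.37 to 0.79. Relative to the median of all tested genes on FPKM as deposited, the log2 fold change was 0.93 for Bcl2l1, 0.54 for Mcl1 and 0.46 for Bak1, and -0.66 for Bok and -1.12 for Bmf.

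**Figure D4:**
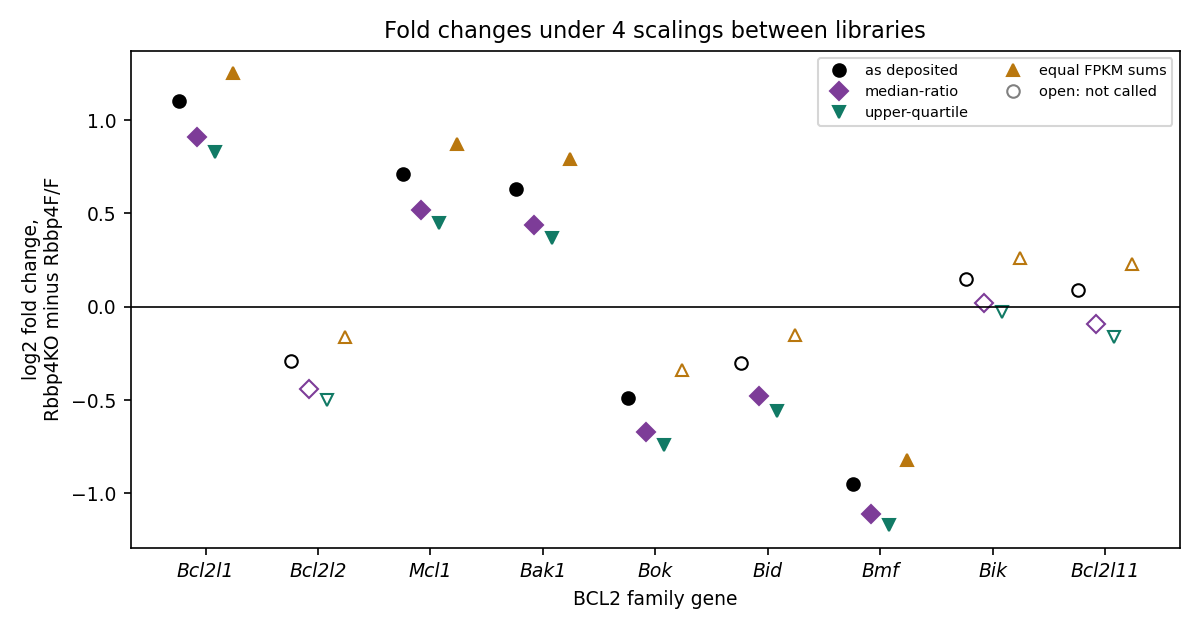
Log2 fold change of FPKM + 1, Rbbp4KO minus Rbbp4F/F, of each tested member under the 4 scalings of the libraries, with open symbols where limma made no call. Bcl2l1, Mcl1 and Bak1 stay above 0 and Bok, Bid, Bmf and Bcl2l2 stay below 0 under all 4, while Bik and Bcl2l11 lie on both sides.

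Promoter sequence is given for Bcl2l1, Mcl1 and Bmf, the called members with the largest log2 fold changes on FPKM as deposited, to set them beside each other. With median-ratio scaling Bok, at -0.67, was farther from 0 than Mcl1, at 0.52. They are the 250 bases before the RefSeq transcript start (GRCm38.p6) nearest to the start of the principal transcript, 5′ to 3′ on the strand of the gene. Capitals mark matches to GGGCGG, the GC box, or to CCAAT, on either strand.
Bcl2l1, chr2:152831729-152831978, minus strand: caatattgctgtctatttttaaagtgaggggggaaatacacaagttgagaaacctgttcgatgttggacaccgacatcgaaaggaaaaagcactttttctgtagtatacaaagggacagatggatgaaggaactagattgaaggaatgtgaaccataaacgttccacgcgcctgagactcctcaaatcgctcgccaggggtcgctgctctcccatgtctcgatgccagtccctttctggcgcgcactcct
Mcl1, chr3:95658471-95658720, plus strand: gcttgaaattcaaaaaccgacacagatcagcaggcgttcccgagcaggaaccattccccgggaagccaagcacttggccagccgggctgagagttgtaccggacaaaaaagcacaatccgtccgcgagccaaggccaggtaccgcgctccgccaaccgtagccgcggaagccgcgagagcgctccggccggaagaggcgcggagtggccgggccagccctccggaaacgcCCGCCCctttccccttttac
Bmf, chr2:118549687-118549936, minus strand: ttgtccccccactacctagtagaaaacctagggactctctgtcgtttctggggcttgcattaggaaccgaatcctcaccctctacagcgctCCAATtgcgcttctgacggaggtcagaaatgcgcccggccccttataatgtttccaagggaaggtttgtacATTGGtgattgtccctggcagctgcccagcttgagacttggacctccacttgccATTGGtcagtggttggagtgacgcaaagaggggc

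The windows held different matches. Bmf had 3 matches to CCAAT, at 159, 88 and 34 bases before the start, Mcl1 had 1 GC box at 20 bases, and the Bcl2l1 window held neither. Over 300 bases, with 50 bases past the start added, the same letters and the TATA box, an E-box, a cAMP response element and a forkhead motif were looked for on both strands in the windows of the 9 members that have an entry. GGGCGG was held by the windows of Bcl2, Bcl2l2, Mcl1, Bok, Bid, Bmf and Bcl2l11 and by 35.7% of all 32851 RefSeq promoter windows. CCAAT was held by Bmf and Bcl2l11 and by 37.4% of all windows. The forkhead motif GTAAACA was held by Bcl2l11 and by 3.65% of all windows. The other motifs were in none of the 9 windows. Among all windows the TATA box, searched as TATAAA, was in 13.6%. The E-box, searched as CACGTG, was in 7.15% of them. The cAMP response element, searched as TGACGTCA, was in 1.79% of them. No motif contains another in its letters. Genes that rose and genes that fell both held a GC box, and the windows of Bcl2l1 and Bak1 held none of the 6. The RefSeq start used lies 382 bases from the start of the principal transcript for Bak1, 85 bases for Bok and 67 bases for Mcl1. The windows of Bak1, Bok and Mcl1 do not reach that start. Bcl2l1 and Bmf have 3 RefSeq starts each and Bcl2l11 has 2, and only the nearest to the principal start was searched.

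Other genes of the family were examined as a list of 13, of which 7 passed the filter. Of these 7 genes 3 rose, beside 36.7% of all tested genes, and 3 fell, beside 22.5% of all tested genes. The median log2 fold change was 0.28, beside 0.17 over all tested genes. Bcl2l13, a mitochondrial outer membrane protein with a role in mitophagy, stood at 65.73, 61.17 and 51.06 FPKM in Rbbp4KO libraries and at 31.12, 26.16 and 34.28 FPKM in Rbbp4F/F libraries. It rose by 0.94 ± 0.13 (SE; limma, adjusted p = 0.00109). Bad, a BH3-only gene whose protein is held back by growth factor signalling, rose by 0.66 ± 0.14 (SE; limma, adjusted p = 0.00607), and antisense exons cover 20.5% of it.

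Bnip3, a BH3-like gene of mitophagy known to respond to hypoxia, stood at 20.18, 23.76 and 27.6 FPKM in Rbbp4KO libraries and at 71.66, 75.62 and 96.61 FPKM in Rbbp4F/F libraries. It fell by 1.73 on the log2 scale (SE 0.15; limma, adjusted p = 0.000164), and antisense exons cover 22.3% of it. Bcl2l12, an atypical family member, fell by 1.16 (SE 0.11; limma, adjusted p = 0.000187), and antisense exons cover 33.4% of it. Rbbp4KO libraries did not overlap Rbbp4F/F libraries for any of these 4 genes, which were named for their small p. Over all tested genes the groups did not overlap for 66.8%.

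Partners at the outer membrane and the factors released through it formed a list of 15, all tested. Of these 15 genes 5 rose, beside 36.7% of all tested genes, and 4 fell, beside 22.5% of all tested genes. The median log2 fold change was 0.16, beside 0.17 over all tested genes. Vdac1, the main channel of the outer membrane, stood at 310.39, 322.42 and 300.13 FPKM in Rbbp4KO libraries and at 586.7, 584.08 and 575.59 FPKM in Rbbp4F/F libraries, and fell by 0.90 (SE 0.06; limma, adjusted p = 8.1e-05). Its relative Vdac3 rose by 0.31 ± 0.08 (SE; limma, adjusted p = 0.0159). Aifm1, a mitochondrial flavoprotein that can be released during death, fell by 0.94 (SE 0.15; limma, adjusted p = 0.00173). Mff, a receptor for the fission protein DRP1, rose by 0.45 ± 0.11 (SE; limma, adjusted p = 0.00942). Median-ratio scaling left 1 gene of the list that rose, and upper-quartile scaling left 0. Leaving out Rbbp4KO replicate 2 gave 3, Rbbp4F/F replicate 1 gave 1 and Rbbp4F/F replicate 3 gave 2.

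Regulators of BCL2 proteins formed a list of 16, all tested. Of these 16 genes 3 rose, beside 36.7% of all tested genes, and 2 fell, beside 22.5% of all tested genes. The list thus held a smaller share of called genes than all tested genes did. The median log2 fold change was 0.11, beside 0.17 over all tested genes. Trim17 encodes a ubiquitin ligase known to act on MCL1 in neurons. Trim17 stood at 75.75, 94.72 and 83.69 FPKM in Rbbp4KO libraries and at 4.27, 3.19 and 3.66 FPKM in Rbbp4F/F libraries, and rose by 4.19 ± 0.13 on the log2 scale (SE; limma, adjusted p = 1.33e-05). The histone gene Hist3h2a shares 19.0% of its exonic bases on the same strand, so reads of the pair may have been split between them.

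Dynll1, the dynein light chain known to bind BIM, rose by 0.61 ± 0.07 (SE; limma, adjusted p = 0.000531), and Dynll2, the light chain known to bind BMF, fell by 0.29 (SE 0.07; limma, adjusted p = 0.0105). Dynll1 stood at 157.1 ± 7.96 FPKM in Rbbp4KO cells and 102.8 ± 4.47 FPKM in Rbbp4F/F cells, and Dynll2 at 82.7 ± 2.29 FPKM in Rbbp4KO cells and 101.5 ± 5.01 FPKM in Rbbp4F/F cells (SD, n = 3 each). Itpr1, a calcium release channel bound by BCL2, fell by 1.44 (SE 0.20; limma, adjusted p = 0.00107). With equal FPKM sums 8 regulators rose and 1 fell, and without Rbbp4KO replicate 1 there were 7 that rose. Without Rbbp4F/F replicate 1 there was 1 that fell, and with median-ratio or upper-quartile scaling there were 4.

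**Figure D5:**
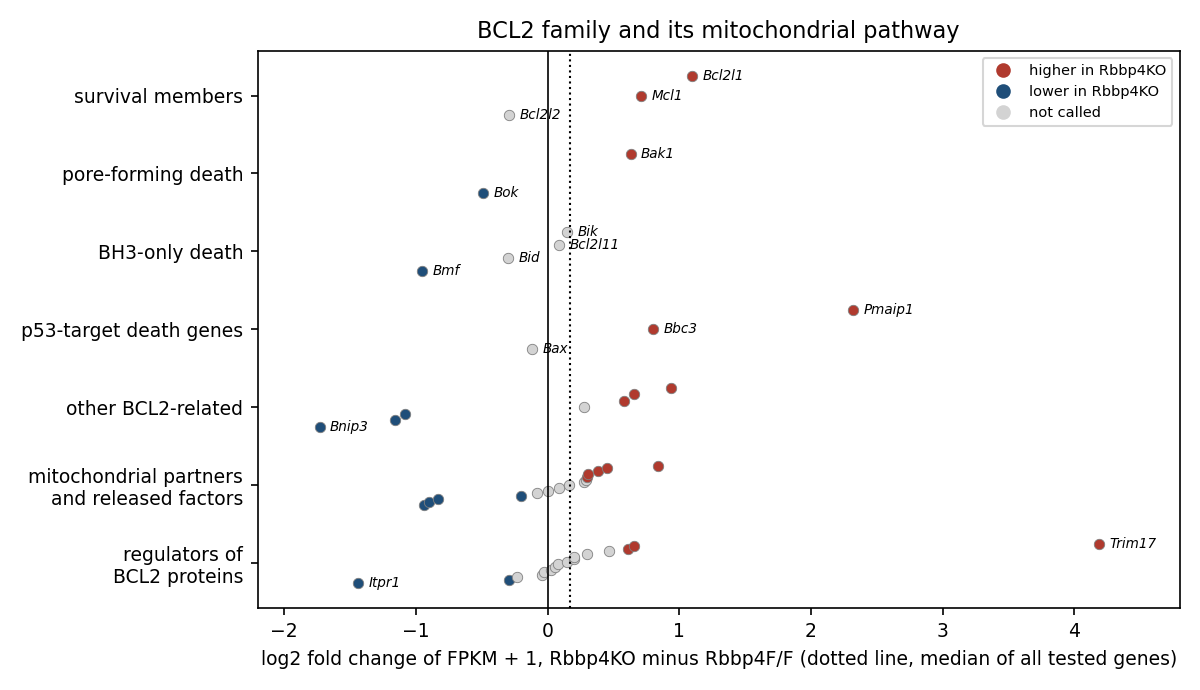
Log2 fold change of FPKM + 1, Rbbp4KO minus Rbbp4F/F, of every tested gene of the family, of the p53-target death genes and of the pathway lists, coloured by the limma call, with a dotted line at the median of all tested genes. Genes on either side of 0 are found in most groups, and Trim17 lies farthest out at 4.19.

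Across the 6 libraries some genes followed a member closely. The genes with the highest Pearson correlation to Bcl2l1 on the log2 scale were Nek6 at 0.9997, Prmt2 at 0.9996 and Wnt10b at 0.9993. Wnt10b, at a mean of 1.377 FPKM in Rbbp4KO libraries and 0.1133 FPKM in Rbbp4F/F libraries, passed the filter only through its Rbbp4KO libraries. A difference between the groups was thus part of its entry into the test. With all libraries in 2 separate groups, such values are set largely by the difference the groups share, and 2165 tested genes had a correlation of at least 0.95 with Bcl2l1. For Bok the closest were Des at 0.9921, Ubtf at 0.9921 and Alox5ap at 0.9916, and 87 genes reached 0.95.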

How the data were processed

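Libraries were made from Trizol-extracted total RNA with the Illumina TruSeq kit and sequenced on a Novaseq6000, per the labels' protocols and the series' design text. Tools listed in the submitters' processing notes, with no roles, are HISAT2 2.1.0, RSEM, FastQC and DESeq 1.26.0, and the build is GRCm38.p6. The authors deposited 1 value per gene without a header, taken as FPKM from the values themselves, which sum to 697933 to 800146 per library. Because FPKM divides by the library total, the values of a gene also depend on how much the abundant transcripts take.

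Of 52872 rows per file, 2 without an identifier were left out. Symbols, coordinates and lengths came from GENCODE M21, which matched 51719 of 51912 Ensembl identifiers. Another 958 loci were assembled from reads. Low values lie on even steps of 1 fragment, and the depth was read from their spacing, with 86.5% to 89.4% of those used within 0.15 of a whole number of steps. At that depth 1 fragment on a 2 kb transcript was worth 0.0200 to 0.0228 FPKM. Counts were not recovered.

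The groups were compared on log2(FPKM + 1) by limma 3.58.1 under R 4.3.3, two-sided, with empirical Bayes moderation, a trend on mean level and no replicate block. A gene was tested where 3 or more libraries reached 1 FPKM, with Benjamini-Hochberg adjustment over all tested genes and a threshold of 0.05. The test was tried on simulated data. Fold changes are on this scale, Rbbp4KO minus Rbbp4F/F. Alternatives were other scalings, a pseudocount of 0.1, no filter, a filter of 5 FPKM, a replicate block, and each library left out.

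The members, gene lists and tests were chosen with earlier results of these data known. Named besides the members are Rbbp4, the p53-target death genes, up to 2 called genes in each direction with the smallest p in each pathway list, and the 3 genes closest to Bcl2l1 and to Bok. Also named are some fibroblast, blood and endothelial markers, picked after their values were seen, and genes that overlap a named gene. Promoters came from RefSeq (GRCm38.p6) and matched 9 of the 10 members.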

Additional observations from a re-analysis of the deposited data

How the results depend on the processing

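Bcl2l1, Mcl1, Bak1, Bbc3 and Pmaip1 were called higher under all 13 alternatives. The members called lower, 2 on FPKM as deposited, were 1 with equal FPKM sums, 1 with no filter and 0 to 3 with 1 library left out. No p53-target death gene was called lower except 1, Bax, without Rbbp4KO replicate 1, so that leaving out libraries gave 0 to 1. Mitochondrial partners called higher were 1 with median-ratio scaling, 0 with upper-quartile scaling and 1 to 7 with 1 library left out. Regulators called higher were 8 with equal FPKM sums and 3 to 7 with 1 library left out, and those called lower were 4 with median-ratio scaling, 4 with upper-quartile scaling, 1 with equal FPKM sums and 1 to 2 with 1 library left out. The cause was not tested. The sign turned for Bik (-0.03 with upper-quartile scaling, -0.05 without Rbbp4KO replicate 2, with up to 0.46 when replicate 3 of that group was left out). It also turned for Bcl2l11 (-0.09 with median-ratio scaling, -0.16 with upper-quartile scaling, and -0.04 to 0.21 with 1 library left out) and for Bax (0.04 with equal FPKM sums). No call was made at any of these values. Without Mcl1 in the survival sum, chosen after seeing the data, the log2 difference of survival over death was 0.88. Replicate numbers gave no sign of pairing. Deviations of same-numbered libraries correlated at -0.001, -0.009 and 0.049, and those of other pairs at -0.072 to 0.072. Whether libraries shared a culture or batch was not tested. With the replicate block 4872 genes were called higher and 2907 lower, among them 3 and 2 members, and no call of a member changed. Depth limits Bcl2 and Bik, with about 18 to 67 and 35 to 103 fragments per library.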
